A study of Mus musculus with 9 samples.

Results

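Embryoid bodies labelled EBD6 were compared with embryoid bodies labelled EBD5, using 6 of the 9 libraries of the series. The members were chosen by label: the 3 EBD6 libraries and the 3 EBD5 libraries, across every expressed Ensembl gene. All 6 came from wild-type mouse embryonic stem cells (genotype WT, with no other allele or agent in the labels) put through embryoid body differentiation, and polyadenylated RNA was sequenced. The third group, EBD2, held 3 more wild-type libraries of the same differentiation and serves here as a point of reference. The labels do not say what the number in a group's name stands for, which cell line was used, whether feeder cells were present, or whether replicates came from separate cultures. P-values therefore cover only the variation among these samples, and it may be technical. By a chi-square test over genes no difference beyond sampling noise was found between EBD6 replicates 2 and 3 (p = 0.169), which were counted as 1 sample, as were EBD2 replicates 1 and 2. This left 3 EBD5 samples, 2 EBD6 samples and 2 EBD2 samples. Libraries held between 5454268 and 11704761 counts. The deepest were EBD6 replicates 2 and 3, at 10447491 and 11704761, and no EBD5 library passed 6376807. Where raw counts are given below they are summed over a group and not scaled, so those of EBD6 rest on more depth. Levels are given in counts per 1000000 (CPM) of the scaled library size, EBD5 replicates 1, 2 and 3 first, then EBD6 replicate 1 and the sum of EBD6 replicates 2 and 3.

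Embryoid bodies are aggregates in which pluripotent cells leave self-renewal and form derivatives of the epiblast and of extraembryonic tissue. Visceral and parietal endoderm form at the surface, a streak-like population turns on Brachyury and gives rise to mesoderm, and cells that escape this path take on ectodermal fates. BMP, Wnt, Nodal and FGF signals steer these choices in the embryo, and their target genes serve as readouts. Polyadenylated RNA libraries also differ in how much ribosomal, mitochondrial and histone RNA they carry over, and in how well GC-rich fragments are recovered during amplification, so both properties were measured beside the lineage genes.

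The EBD5 and EBD6 libraries differed in GC content. Among 13739 nuclear protein-coding genes split into 10 equal bins by the GC content of their exons, the bin with the lowest GC content (33.7 to 42.5%) had a median log2 fold change of -0.54 for EBD6 against EBD5. The bin with the highest GC content (58.1 to 72.8%) had a median of 0.99, and the medians rose from each bin to the next. Genes of the highest bin took 3.45, 3.29 and 3.26% of protein-coding counts in EBD5 replicates 1 to 3, against 6.03, 6.78 and 6.76% in EBD6 replicates 1 to 3. The EBD2 libraries lay between them, at 5.37, 5.34 and 4.98%. EBD5 libraries were thus the poorest of the series in GC-rich messenger RNA, with no overlap. Over the same genes the rank correlation of the fold change with GC content was 0.57 and with exon length -0.17. These correlations are across genes, which share their libraries and are not replicates. Against EBD2, the medians of the lowest and highest bins were 0.28 and -0.71 for EBD5, and -0.26 and 0.31 for EBD6.

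**Figure D1:**
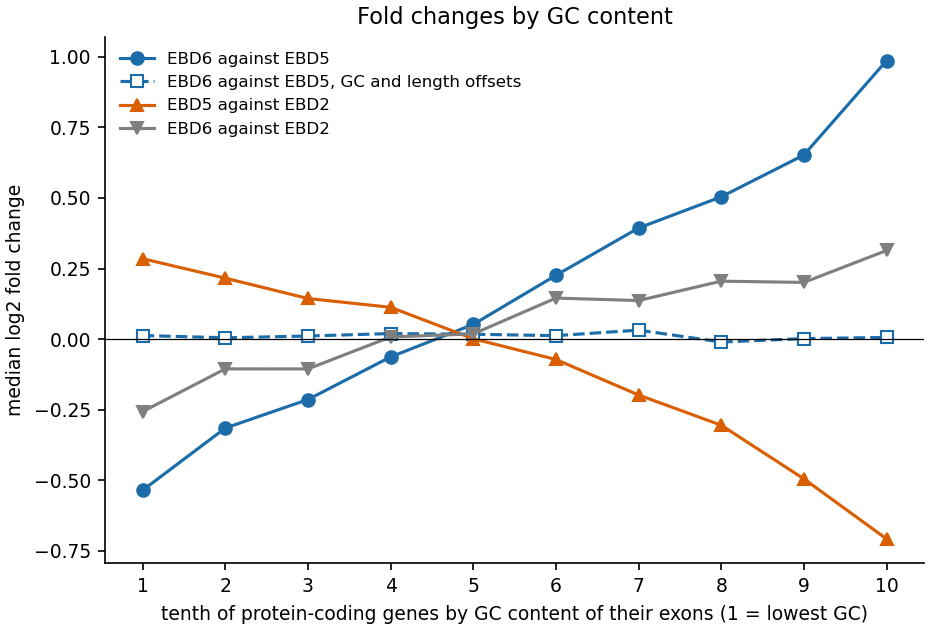
Median log2 fold change (y axis) of nuclear protein-coding genes in each of 10 bins of exon GC content (x axis), for 3 comparisons and for EBD6 against EBD5 after offsets for GC content and exon length. EBD6 against EBD5 climbs from -0.54 to 0.99, EBD5 against EBD2 declines from 0.28 to -0.71, and the line with offsets stays near 0.

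To set these shifts aside, every gene was tested a second time with offsets that bring the median protein-coding gene of each bin of GC content and exon length to the same level in every sample. After the offsets the rank correlation with GC content was 0.021. The offsets remove any difference that genes of like GC content and length share, whatever its source, and the source was not tested. Values without offsets come first below, and "with offsets" marks the second set.

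The RNA classes of the libraries differed as well. Nuclear ribosomal RNA genes took 0.811, 0.726 and 0.781% of counts in EBD5 replicates 1 to 3 and 0.0236, 0.0192 and 0.0247% in EBD6 replicates 1 to 3, a 33.9-fold difference of means. Nearly all of it was counted on CT010467.1, a ribosomal RNA gene (ENSMUSG00000106106, chromosome 17, 39846353 to 39848827, minus strand, mm10). The lincRNA AY036118, annotated within those same coordinates and strand, took 0.575, 0.403 and 0.544% against 0.00983, 0.00381 and 0.0054%. The counting can assign reads of that interval to either gene, so the pair is uncertain as separate genes. Mitochondrial ribosomal RNA, from mt-Rnr1 and mt-Rnr2, took 0.536 ± 0.0139% in EBD5 (SD, n = 3) and 0.00866 ± 0.00342% in EBD6 (SD, n = 2). Mitochondrial messenger RNA took 0.568 ± 0.0399% and 0.0653%, and mt-Co1, a cytochrome oxidase subunit, stood at 2408, 1977 and 2477 against 199.6 and 121 CPM. The last value joins unlike libraries, since mt-Co1 took 0.00873% of counts in EBD6 replicate 2 and 0.0165% in EBD6 replicate 3. Both mitochondrial classes were higher in every EBD5 library than in any EBD6 library.

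Processed pseudogenes, which are retrotransposed copies of messenger RNAs, took 0.990% of counts in EBD5 and 0.155% in EBD6, a 6.39-fold difference. Replication-dependent histone genes, whose messages end in a stem-loop in place of a poly(A) tail, took 0.0449% and 0.00936%. Genes of the cytosolic ribosomal proteins took 2.13% and 1.21%. Malat1, a nuclear-retained long non-coding RNA, stood at 3024, 2869 and 3199.5 against 813 and 606 CPM. MicroRNA genes differed in the opposite direction, at 0.000507% in EBD5 and 0.00875% in EBD6, and the class was led by Gm22133, which had 0 counts in EBD5 and 1025 in EBD6 (at least 195-fold higher against a floor of 3 counts over the group). Antisense RNA genes took 0.229% and 0.221% and their libraries overlapped. For the classes whose libraries did not overlap, an exact two-sided permutation test over 3 and 2 samples gave p = 0.2, the smallest it can give. No label ties a library to a preparation or an instrument, so the part of library preparation in these shares was not tested.

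**Figure D2:**
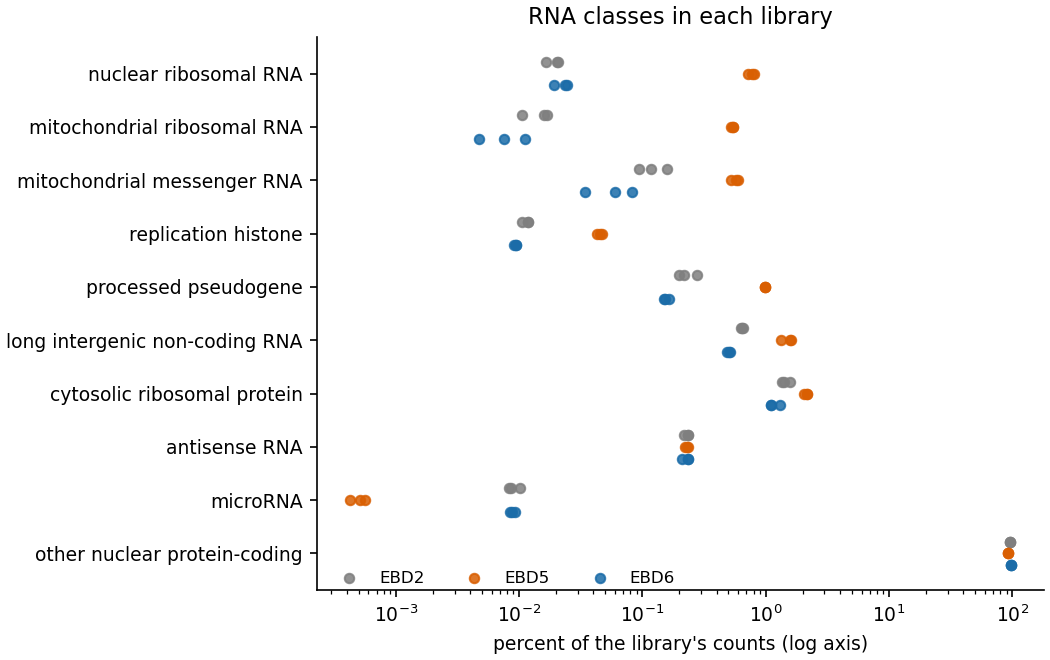
Share of each library's counts, in percent on a log axis, held by 10 RNA classes, with 1 point per library. EBD5 points lie to the right of EBD2 and EBD6 for ribosomal, mitochondrial, histone and pseudogene RNA (nuclear ribosomal RNA 0.726 to 0.811%), to the left for microRNA, and among the others for antisense RNA.

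Of 16168 genes tested, 5973 (36.9%) were higher in EBD6 and 5383 (33.3%) were lower by edgeR's quasi-likelihood test at a Benjamini-Hochberg adjusted p under 0.05. With offsets 4588 (28.4%) were higher and 5380 (33.3%) lower. Of the 5973 higher genes, 3592 were also called higher with offsets, 1966 were not called, and 415 were called lower. Of the 5383 lower genes, 3916 were also called lower, 1303 were not called and 164 turned. Since most genes pass these tests, tests against a fold of 1.5 were read beside them. Without offsets 2844 genes (17.6%) were higher and 2473 (15.3%) lower by that test. With offsets, called the stricter test below, it gave 1339 genes (8.28%) higher and 2087 (12.9%) lower. Protein-coding genes with several exons, other than ribosomal protein, histone and mitochondrial genes, were 13341 of the 16168 genes tested. They made up 86.0% of the genes higher by the stricter test but 49.5% of those lower. Within this class 8.64% were higher and 7.74% lower by that test. Pseudogenes made up 29.9% of all genes lower by the stricter test: 625 of 832 tested pseudogenes were lower by it and 20 were higher. Where groups are said not to overlap below, this describes the values of the genes named. The share of all genes without overlap is not given here, so a lack of overlap does not set a gene apart.

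Trophoblast genes were higher in EBD6. Trophoblast is the outer lineage that builds the placenta, and all 12 tested genes of its list rose (36.9% of all genes did), 10 of them with offsets (28.4%) and 9 by the stricter test (8.28%). Their median log2 fold change was 2.18, or 1.5 with offsets, against 0.04 and -0.04 over all genes tested. Members near 0 in EBD5, among them Tpbpa and Prl3d1, passed the filter through levels outside EBD5 and could hardly be called lower. The count of 12 is thus partly set by which genes could be tested. The same holds for such genes in the lists below. Krt7, a keratin of trophoblast and simple epithelia (ENSMUSG00000023039, chromosome 15, 101411043 to 101430313, plus strand), was at 7.91, 6.35 and 6.99 CPM in the EBD5 samples and 89.7 and 88.3 CPM in the EBD6 samples. The groups did not overlap, and its log2 fold change was 3.65 ± 0.12 (SE; adjusted p = 4.86e-09), or 3.13 with offsets. Esx1, a homeobox gene of the extraembryonic ectoderm and placenta, stood at 11, 9.53 and 11.5 against 37.9 and 37.4 CPM, a log2 fold change of 1.82 (1.29 with offsets). Cdx2, a trophectoderm and posterior homeobox gene, was at 0.719, 0.167 and 1.13 against 13.9 and 16.4 CPM, so the 3 EBD5 samples were near the detection limit and both EBD6 samples well above it. The syncytin gene Syna, whose product fuses placental cells, was at 0.18, 0.334 and 0.567 against 18.1 and 19.3 CPM. Ascl2, a spongiotrophoblast factor, had a log2 fold change of 2.38 (1.42 with offsets). Tfap2c, which acts in trophoblast stem cells, changed less, at 54.5, 49.3 and 49.3 against 107 and 99.3 CPM. Plet1, a marker of trophoblast progenitors, had 0.29 (0.41 with offsets). Tead4, an early trophectoderm factor, had 0.87 (-0.18 with offsets) and did not pass with offsets. Another 4 listed genes were too low to test: Elf5 (1 count in EBD5, 16 in EBD6), Prl3b1 (0 and 5), Prl2c2 (0 and 7) and Synb (0 and 0).

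Markers of differentiated placental cells were almost confined to the EBD6 libraries among these 6. Tpbpa, a spongiotrophoblast marker, had 1 count over EBD5, in replicate 3, and 188 over EBD6, a ratio of 107 (95% exact counting interval 19 to 4270). Prl3d1, a placental lactogen of giant cells from a family of close copies, had 0 and 54 counts. Ctsj, a cathepsin of the placental cathepsin cluster (ENSMUSG00000055298, chromosome 13, 61000179 to 61005959, minus strand), had 0 counts in EBD5 and stood at 12.7 and 13.8 CPM in EBD6, at least 75.6-fold higher. Serpinb9g and Serpinb9e, 2 serine protease inhibitor genes of a cluster on chromosome 13, stood at 0, 0 and 0.189 against 13.7 and 14.4 CPM and 0.899, 1.0 and 0.944 against 29.6 and 30.4 CPM. The only EBD5 count of Serpinb9g was in replicate 3. Both belong to families of near-identical copies, so their split is uncertain. These intervals and floors cover counting error only, since no molecular identifiers were counted and PCR copies cannot be told from separate molecules. Whether EBD6 held more cells of a type or more RNA per cell cannot be told apart in bulk libraries, here or below.

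The promoters of Tpbpa and Prl3d1 are shown because both genes went from at most 1 count to called in EBD6 and both hold an AP-1 motif, the binding sequence of Fos and Jun family factors. The sequences are RefSeq promoters of GRCm38.p6, from 250 bases before to 50 after the annotated start, 5′ to 3′ on the gene's strand, with TGAGTCA (or TGACTCA, the same motif on the other strand) in capitals. Tpbpa lies at chr13:60941887-60942186 on the minus strand and Prl3d1 at chr13:27093939-27094238 on the plus strand.
Tpbpa: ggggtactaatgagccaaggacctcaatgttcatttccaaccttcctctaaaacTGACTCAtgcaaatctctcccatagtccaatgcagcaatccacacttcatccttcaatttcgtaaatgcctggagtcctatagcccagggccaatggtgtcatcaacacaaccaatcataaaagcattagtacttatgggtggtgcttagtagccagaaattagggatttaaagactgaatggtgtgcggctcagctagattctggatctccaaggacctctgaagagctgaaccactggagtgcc
Prl3d1: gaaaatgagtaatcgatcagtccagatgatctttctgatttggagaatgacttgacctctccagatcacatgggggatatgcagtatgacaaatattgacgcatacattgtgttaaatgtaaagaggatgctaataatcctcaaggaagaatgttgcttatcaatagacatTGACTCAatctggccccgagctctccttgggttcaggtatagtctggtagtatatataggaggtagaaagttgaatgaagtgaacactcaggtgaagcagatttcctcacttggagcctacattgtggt
The motif began 196 bases before the start in Tpbpa and 79 bases before it in Prl3d1. It was in 2 of the 12 trophoblast promoters found in the table, and in 1396 of 27025 promoters of all genes (5.17%). A match is a description of the letters and not of binding.

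Surface ectoderm and neural genes rose in part. Of 7 tested surface ectoderm genes, 6 were higher and 1 lower (36.9% and 33.3% over all genes). With offsets 5 were higher and 2 lower (28.4% and 33.3%), and by the stricter test 5 were higher and none lower (8.28% and 12.9%). Dlx3, a homeobox gene of epidermis and placenta (ENSMUSG00000001510, chromosome 11, 95120119 to 95125296, plus strand), was at 1.08, 1.34 and 1.70 CPM in the EBD5 samples and 30.3 and 33.7 CPM in the EBD6 samples, a log2 fold change of 4.55 (3.84 with offsets). Trp63, which encodes the epithelial stem cell factor p63, stood at 0.18, 0.167 and 0.567 against 8.28 and 8.44 CPM (log2 4.75, or 5.49 without EBD5 replicate 3), and Grhl3, an epidermal barrier factor, at 14.2, 13.5 and 13.8 against 36.8 and 42.0 CPM. Gata3 and Tfap2a, which the trophoblast or neural crest lists share, had log2 fold changes of 1.98 (1.58 with offsets) and 2.06 (1.67 with offsets). The groups did not overlap for any of these. Krt5, Krt14 and Dlx5 were too low to test, with 0 counts each in EBD5 and 12, 52 and 68 in EBD6.

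Of 16 tested neuroectoderm genes 12 rose and 4 fell (36.9% and 33.3% over all genes). With offsets 9 rose and 3 fell (28.4% and 33.3%), and by the stricter test 7 rose and 2 fell (8.28% and 12.9%). Against EBD2 the median log2 fold change of the list was -0.72 for EBD5 and 0.07 for EBD6. As a list, these genes were thus lower in EBD5 than in EBD2, and in EBD6 near their EBD2 level. Zic1, a dorsal neural zinc finger gene, stood at 0.539, 0.669 and 0.944 against 16.0 and 14.6 CPM. Six3, a forebrain transcription factor gene, was at 2.88, 2.84 and 4.16 against 28.5 and 30.8 CPM. Tubb3, the tubulin of young neurons, stood at 5.75, 5.52 and 3.78 against 32.6 and 36.1 CPM, a log2 fold change of 2.78 (2.13 with offsets). In EBD2 its mean was 31.7 CPM, so the level in EBD5 lay below both other groups. Lhx2 had 2.66 (1.69 with offsets) and Pax6, an eye and neural tube factor, 0.84 (0.85 with offsets). Other neural genes moved the other way: Zic5 had -1.17 (-1.20 with offsets), Hesx1, an anterior forebrain gene, -0.88 (-0.62 with offsets), and Zic2 -0.31 (-1.37 with offsets). The anterior genes within the list were therefore not of 1 direction. Map2 fell with -0.50 and did not pass with offsets. Sox9, a neural crest and endoderm factor (ENSMUSG00000000567, chromosome 11, 112782224 to 112787760, plus strand), was among the 15 largest rises of all protein-coding genes, at 0.539, 0.669 and 0.378 against 17.3 and 16.0 CPM.

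**Figure D3:**
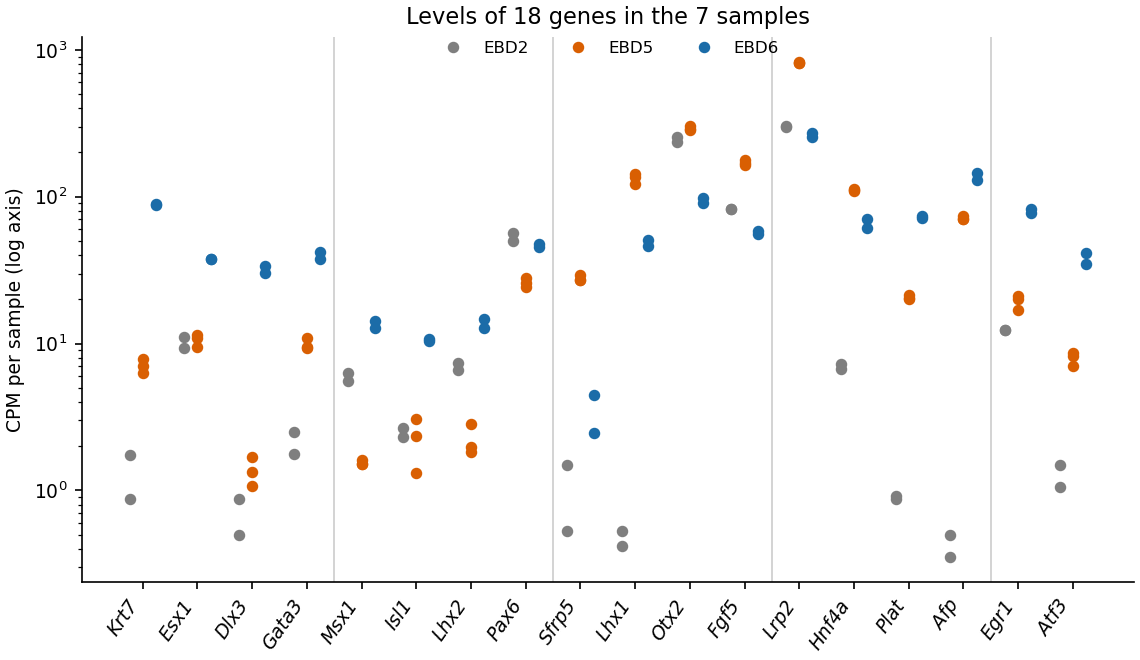
Levels in CPM per sample, on a log axis, of 18 genes in the 2 EBD2, 3 EBD5 and 2 EBD6 samples, with trophoblast and ectoderm genes at the left, then mesoderm and neural, anterior and epiblast, endoderm, and immediate early genes. EBD6 points lie above EBD5 for the first 8 genes (Krt7 at 6.35 to 7.91 CPM in EBD5 and 88.3 to 89.7 CPM in EBD6) and below it for Sfrp5, Lhx1, Otx2, Fgf5, Lrp2 and Hnf4a.

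Mesodermal lists differed among themselves. Of 9 tested streak genes 7 rose and 2 fell (36.9% and 33.3% over all genes), with offsets 4 rose and 2 fell (28.4% and 33.3%), and by the stricter test also 4 and 2 (8.28% and 12.9%). The summed level of the 13 listed genes was lower in EBD6, at 262 to 286 CPM against 329 to 359 CPM. T, the Brachyury gene of the primitive streak and nascent mesoderm (ENSMUSG00000062327, chromosome 17, 8434423 to 8442496, plus strand), was at 1.80, 1.84 and 1.51 CPM in the EBD5 samples and 25.4 and 27.9 CPM in the EBD6 samples, a log2 fold change of 3.95 ± 0.20 (SE; adjusted p = 5.27e-08), or 3.61 with offsets. EBD2 was at 2.38 ± 0.872 CPM. Sp5 and Evx1, both of the posterior streak, had log2 fold changes of 4.04 (3.08 with offsets) and 2.39 (1.33 with offsets). Eomes and Lhx1, which act in the anterior streak and visceral endoderm, fell: Eomes stood at 130.3, 135 and 132 against 64.1 and 66.7 CPM and Lhx1 at 122, 143 and 136 against 46.0 and 50.8 CPM. Nodal and Fgf8 were called higher, at 0.53 and 0.74, and neither passed with offsets. Mesp1 and Wnt3a had 0 counts in EBD5 and 29 and 26 in EBD6, too few to test.

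Of 11 tested genes in the list of lateral plate and extraembryonic mesoderm, 9 rose and none fell (36.9% and 33.3% over all genes). With offsets 9 rose and 2 fell (28.4% and 33.3%), and by the stricter test 5 rose and none fell (8.28% and 12.9%) (median log2 2.01, or 1.04 with offsets). Hand1, a factor of extraembryonic mesoderm and trophoblast, stood at 4.13, 3.84 and 4.91 against 68.5 and 65.4 CPM, a log2 fold change of 3.96 (3.31 with offsets). Msx1 and Msx2, homeobox genes downstream of BMP, were at 1.62, 1.5 and 1.51 against 12.9 and 14.3 CPM and 2.34, 3.18 and 4.16 against 30.8 and 29.8 CPM. Isl1, a factor of second heart field and other progenitors, stood at 3.06, 2.34 and 1.32 against 10.7 and 10.4 CPM, and Bmp4 at 12.4, 13.2 and 11.3 against 27.1 and 28.8 CPM. None of these overlapped between groups. Twist1 had 0.47 (-0.51 with offsets): it was called higher without offsets and lower with them, and the first call was lost on leaving out any 1 EBD5 replicate or EBD6 replicate 1 (0.29 to 0.49). Tbx4 and Tbx20 did not pass without offsets, at -0.16 and 0.12. Of 6 tested paraxial mesoderm genes 4 rose and none fell (36.9% and 33.3% over all genes). With offsets 3 rose and 2 fell (28.4% and 33.3%). The median log2 fold change of that list was 0.84, or 0.07 with offsets. Dll1, a Notch ligand gene, had 1.27 (0.70 with offsets). Of 8 tested cardiac muscle genes 4 rose and 2 fell (36.9% and 33.3% over all genes), and with offsets 3 rose and 3 fell (28.4% and 33.3%). Tnnt2, the cardiac troponin T gene, rose with 1.88 (1.62 with offsets), while Ttn, the giant sarcomere protein gene, fell with -2.72 (-2.64 with offsets). The summed level of the cardiac list was 67.8 to 75.4 CPM in EBD5 and 43.3 to 51.1 CPM in EBD6. That sum includes Ttn, which stood at 28.9, 24.9 and 24.7 against 3.52 and 4.11 CPM, with an EBD2 mean of 143 CPM. The lower sum thus does not describe the whole list.

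Several endothelial genes were higher. Cdh5, the endothelial cadherin (ENSMUSG00000031871, chromosome 8, 104101625 to 104144511, plus strand), was at 1.62, 1.67 and 2.83 CPM in the EBD5 samples and 39.3 and 50.3 CPM in the EBD6 samples, a log2 fold change of 4.49 (4.09 with offsets). Kdr, the VEGF receptor of the first endothelial and blood progenitors, was at 1.44, 1.34 and 1.13 against 9.34 and 9.46 CPM, Flt1 at 36.0, 38.9 and 37.6 against 72.6 and 83.4 CPM and Gata2 at 5.57, 5.18 and 5.29 against 45.1 and 56.0 CPM. Tek, the angiopoietin receptor, fell with -0.71 (-0.65 with offsets). Gata1, Tal1 and Runx1, factors of blood formation, did not pass without offsets, at -0.47, -0.25 and -0.37, and were called lower with them, at -0.99, -0.83 and -0.36. Runx1 also passed without offsets on leaving out EBD5 replicate 2 (-0.48) or EBD6 replicate 2 (-0.39), which made the fallen genes of the list 2. Over the list of 15 tested genes, 8 rose and 1 fell (36.9% and 33.3% over all genes). With offsets 7 rose and 4 fell (28.4% and 33.3%), and by the stricter test 6 rose and none fell (8.28% and 12.9%). Csf1r, the receptor of the macrophage growth factor CSF1, which trophoblast also expresses, was among the 15 largest rises at 0.36, 0.167 and 0.944 against 12.2 and 18.3 CPM (log2 5.02, or 5.86 without EBD5 replicate 3). The embryonic globins were nearly absent, with 11 counts of Hba-x, 1 of Hbb-y and 22 of Hbb-bh1 in EBD6 and 0 of each in EBD5.

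Endoderm lists did not move as 1 block. Genes of the anterior visceral endoderm, the signalling centre that patterns the head, were lower in EBD6: 6 of 8 fell (33.3% of all genes did), and with offsets and by the stricter test 7 of 8 fell (33.3% and 12.9%), with none higher. The median was -1.08, or -1.33 with offsets. Sfrp5, a secreted Wnt antagonist (ENSMUSG00000018822, chromosome 19, 42197971 to 42202252, minus strand), was at 27.1, 29.1 and 27.0 CPM in the EBD5 samples and 2.47 and 4.45 CPM in the EBD6 samples, a log2 fold change of -2.83 ± 0.22 (SE; adjusted p = 7.73e-07). Otx2, a head organiser and epiblast factor, stood at 288, 286 and 301 against 98.1 and 90.2 CPM, and Cer1, a Nodal and BMP antagonist, at 22.7, 22.6 and 26.3 against 9.86 and 10.01 CPM. Hhex stood at 30.9, 34.8 and 32.9 against 16.7 and 17.8 CPM. All libraries of EBD5 were above all of EBD6 for these 4 genes. Lefty1, a Nodal inhibitor with 60.0% GC, had 0.13 (-0.84 with offsets), and passed only with offsets.

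The visceral endoderm list held genes of both directions. Of 20 tested genes 9 rose and 8 fell, shares near those of all genes (36.9% and 33.3%). With offsets 7 rose and 9 fell (28.4% and 33.3%), and by the stricter test 3 rose and 7 fell (8.28% and 12.9%). Cubn and Lrp2, the 2 endocytic receptors that take up proteins from maternal fluid, fell: Cubn stood at 1128, 1111 and 1135 against 410.3 and 402 CPM and Lrp2 at 812, 833 and 808 against 255 and 270.1 CPM. Hnf4a, the factor that drives secretory genes, stood at 113, 112 and 110.1 against 61.1 and 70.3 CPM, and the apolipoprotein genes Apoa4 and Apoa1 had log2 fold changes of -1.82 (-2.48 with offsets) and -1.22 (-1.75 with offsets). Other apolipoprotein genes rose, Apoa2 with 0.78 (0.44 with offsets) and Apom with 0.86 (0.33 with offsets). Against these, Afp, the fetal serum protein (ENSMUSG00000054932, chromosome 5, 90490737 to 90508907, plus strand), rose, at 73.9, 70.7 and 70.3 against 145 and 130.2 CPM, a log2 fold change of 0.94 (1.13 with offsets). Amn, whose product carries cubilin to the membrane, was at 13.3, 14.9 and 11 against 44.7 and 56.4 CPM, and Spink1, a trypsin inhibitor, at 56.1, 57.2 and 66.5 against 106 and 84.9 CPM. The receptor and its partner Amn thus differed in opposite directions, both with and without offsets. Ttr and Fgb did not pass without offsets, at 0.19 and -0.10. With offsets Ttr was called higher, at 0.47, and Fgb did not pass. Apoe, with 60.0% GC, had 0.29 (-0.66 with offsets), so that its call turned. Its call without offsets was lost on leaving out EBD5 replicate 2 or 3 or EBD6 replicate 1 (0.25, 0.29 and 0.23).

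Among 13 genes of primitive and parietal endoderm, 8 rose and 3 fell (36.9% and 33.3% over all genes). With offsets 6 rose and 5 fell (28.4% and 33.3%), and by the stricter test 2 rose and 1 fell (8.28% and 12.9%). Plat, a plasminogen activator secreted by parietal endoderm, stood at 20.3, 20.1 and 21.5 against 71.2 and 73.4 CPM, a log2 fold change of 1.81 (1.89 with offsets). Basement membrane collagens followed, with Col4a2 at 1.77 (0.78 with offsets) and Col4a1 at 1.02 (0.38 with offsets). Dab2, an endocytic adaptor, fell with -0.86 (-0.62 with offsets). Gata6, the factor that starts primitive endoderm, was at 52.7, 51.3 and 58.0 against 39.1 and 45.2 CPM, a log2 fold change of -0.33 (-1.02 with offsets). Gata4 had 0.29 (-0.39 with offsets) and turned from higher to lower. Of 9 definitive endoderm genes 4 rose (2 without EBD5 replicate 1) and 1 fell (36.9% and 33.3% over all genes). With offsets 3 rose and 5 fell (28.4% and 33.3%). Sox17 stood at 17.4, 15.5 and 15.5 against 40.9 and 48.5 CPM and Krt19 at 19.8, 18.2 and 22.5 against 112 and 106 CPM, both higher by the stricter test. Foxa2 had 0.33 (-0.64 with offsets), higher without offsets, where the call was lost without EBD5 replicate 1 (0.25), and lower with them.

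Core pluripotency genes were more often lower than higher, while naive genes were more often higher. Of 13 core genes 8 fell and 3 rose (33.3% and 36.9% over all genes), with offsets 10 fell and 2 rose (33.3% and 28.4%), and by the stricter test 3 fell and none rose (12.9% and 8.28%). Their median log2 fold change was -0.32, or -0.54 with offsets. The 8 markers of the cell type label (embryonic stem cells) were all detected in every library, and their summed level was 1300.0 to 1430.0 CPM in EBD5 and 1170.0 to 1330.0 CPM in EBD6. Of these 8, 4 fell and 2 rose (33.3% and 36.9% over all genes), and with offsets 4 fell and 1 rose (33.3% and 28.4%). Pou5f1 (ENSMUSG00000024406, chromosome 17, 35506018 to 35510772, plus strand) encodes Oct4 and had 237, 227 and 229 CPM in the EBD5 samples and 196 and 176 CPM in the EBD6 samples, and Nanog was at 232, 235 and 225 against 199 and 162 CPM. Sox2 was at 153, 174 and 153 against 196 and 167 CPM and overlapped between groups. Pou5f1 with -0.32 (-0.85 with offsets) and Dppa5a with -0.97 (-0.94 with offsets) were among the 3 that fell by the stricter test. Sall4, Trim28 and Utf1 were called higher without offsets, at 0.15, 0.34 and 0.46, and lower with them, at -0.23, -0.21 and -0.51. The call of Sall4 without offsets was lost on leaving out any 1 EBD5 replicate, EBD6 replicate 2 or EBD2 replicate 2 (0.12 to 0.15). Lin28b turned the other way, from -0.39 to 0.16. Its exons hold 40.8% GC and those of Utf1 63.5%.

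Of 13 naive pluripotency genes 8 rose and 3 fell (36.9% and 33.3% over all genes), 7 rose and 2 fell with offsets (28.4% and 33.3%), and 1 rose and 1 fell by the stricter test (8.28% and 12.9%). Klf2, Klf4 and Nr0b1 had log2 fold changes of 1.58 (0.62 with offsets), 1.15 (0.44 with offsets) and 1.22 (0.69 with offsets). Klf2 stood at 34.5, 36.1 and 27.8 against 102 and 96.1 CPM and its EBD2 mean was 116 CPM. Prdm14, a naive and germ cell factor, passed the stricter test at 7.19, 8.19 and 9.44 against 15.9 and 19.5 CPM. Fgf4 was lower, at 151, 152 and 161 against 103 and 105 CPM. Epiblast genes included the steepest falls of these lists: Fgf5, the marker of formative epiblast (ENSMUSG00000029337, chromosome 5, 98254184 to 98277030, plus strand), was at 165, 170.0 and 177 CPM in the EBD5 samples and 58.8 and 55.5 CPM in the EBD6 samples, a log2 fold change of -1.59 (-1.66 with offsets). Dnmt3b, the de novo DNA methyltransferase of epiblast, had -0.79 (-1.18 with offsets). Sox3, Pou3f1 and Etv4 were called higher at 0.85, 0.79 and 0.94, and with offsets none of these 3 passed. Over the 11 epiblast genes, 6 rose and 3 fell without offsets (36.9% and 33.3% over all genes), 1 rose and 5 fell with them (28.4% and 33.3%), and none rose and 3 fell by the stricter test (8.28% and 12.9%).

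Readouts of signalling moved in different directions. All 10 BMP response genes were higher (36.9% of all genes were). With offsets 9 were higher (28.4%) and 1, Smad7, was lower, and 6 were higher by the stricter test (8.28%; median log2 1.63, or 0.87 with offsets). Id3, a dominant inhibitor of basic helix-loop-helix factors, stood at 9.35, 10.03 and 11.3 against 54.4 and 52.5 CPM, Id1 at 18.2, 16.2 and 17.2 against 41.6 and 42.3 CPM and Id2 at 35.4, 39.1 and 37.4 against 56.7 and 49.9 CPM. The groups did not overlap for the Id genes. Smad7, an inhibitor of both BMP and Nodal signalling with 58.6% GC, had 0.45 (-0.51 with offsets). Of 8 Nodal response genes 3 rose and 3 fell (36.9% and 33.3% over all genes), and with offsets none rose and 7 fell (28.4% and 33.3%). Cer1 and Tdgf1, the Nodal co-receptor gene, had -1.25 (-1.11 with offsets) and -0.74 (-0.55 with offsets). Foxh1, with 59.6% GC, had 0.21 (-0.76 with offsets) and turned, and its call without offsets was lost on leaving out EBD5 replicate 1 or 3, EBD6 replicate 2 or EBD2 replicate 3 (0.15 to 0.23). Among 11 Wnt response genes 7 rose and 2 fell (36.9% and 33.3% over all genes), and with offsets 6 rose and 1 fell (28.4% and 33.3%): Axin2, a feedback inhibitor, stood at 16.7, 16.4 and 18.9 against 35.6 and 46.4 CPM, Nkd1 at 8.99, 8.36 and 5.86 against 20.6 and 24.3 CPM, while Tcf7 fell with -0.68 (-1.19 with offsets). Of 9 hedgehog genes 7 rose and 1 fell (36.9% and 33.3% over all genes), and with offsets 5 rose and 2 fell (28.4% and 33.3%). Without offsets 0 fell on leaving out EBD5 replicate 1 or 3 or EBD6 replicate 1. Gli1, the target gene that reports hedgehog activity, stood at 11.1, 10.9 and 8.69 against 27.8 and 33.1 CPM, and its EBD2 mean was 49.1 CPM. Gli3 had 1.13 (0.96 with offsets), and the ligand gene Ihh 1.54 (0.49 with offsets). Gli2 had 0.61 (-0.42 with offsets) and turned. Of 11 retinoic acid response genes 6 rose and 1 fell (2 without EBD2 replicate 3 or EBD5 replicate 2), against 36.9% and 33.3% over all genes. With offsets 5 rose and 2 fell (28.4% and 33.3%). Crabp1, a retinoic acid binding protein, rose with 2.41 (1.75 with offsets), and Cyp26a1, which degrades retinoic acid, fell with -0.89 (-1.55 with offsets).

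All 13 tested immediate early genes, which are transcribed within minutes of a stimulus, were higher in EBD6, 12 of them with offsets and 8 by the stricter test (36.9%, 28.4% and 8.28% of all genes). Their median log2 fold change was 1.69, or 1.01 with offsets. Junb stood at 9.17, 7.35 and 7.55 against 50.03 and 55.2 CPM, Atf3 at 8.27, 8.69 and 6.99 against 34.9 and 41.1 CPM, Fos at 8.27, 7.35 and 7.74 against 31.5 and 33.9 CPM and Egr1 at 20.1, 17 and 21.2 against 77.7 and 82.3 CPM. The 2 groups were apart in each, and the EBD2 means were 4.96, 1.28, 1.06 and 12.3 CPM. Myc stood at 16.4, 14.2 and 12.8 against 58.7 and 57.2 CPM. Dusp1, a phosphatase that ends MAP kinase signals, was at 25.5, 25.9 and 24.9 against 55.1 and 56.7 CPM, with an EBD2 mean of 77.4 CPM, above both other groups. Fosl1 had 1.08 (0.11 with offsets), and did not pass with offsets or without EBD5 replicate 1 or 2 (0.97 and 0.91). These genes also respond to cell dissociation and handling, and no label records how the cells were harvested, so the part of handling was not tested.

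The promoters of Fos and Dusp1 are shown because both genes rose with and without offsets and both hold TGACGT, the core of the cAMP response element that CREB and ATF factors bind. As above, the sequences are RefSeq promoters of GRCm38.p6, with TGACGT and its reverse ACGTCA in capitals. Fos lies at chr12:85473640-85473939 on the plus strand and Dusp1 at chr17:26508423-26508722 on the minus strand.
Fos: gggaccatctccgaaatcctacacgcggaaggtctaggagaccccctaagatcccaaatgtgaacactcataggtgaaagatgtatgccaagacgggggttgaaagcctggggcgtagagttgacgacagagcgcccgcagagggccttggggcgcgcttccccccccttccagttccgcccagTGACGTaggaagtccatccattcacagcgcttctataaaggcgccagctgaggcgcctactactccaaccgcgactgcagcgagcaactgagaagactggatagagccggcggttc
Dusp1: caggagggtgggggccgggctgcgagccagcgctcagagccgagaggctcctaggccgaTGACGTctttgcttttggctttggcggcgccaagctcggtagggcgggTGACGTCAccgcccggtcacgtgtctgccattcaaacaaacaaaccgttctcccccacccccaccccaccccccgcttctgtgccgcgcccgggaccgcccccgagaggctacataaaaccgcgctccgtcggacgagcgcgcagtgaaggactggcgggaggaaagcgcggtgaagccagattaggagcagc
In Fos the motif began 66 bases before the start. In Dusp1 it began 191 bases before the start, and a second stretch held both strands' letters overlapping, beginning 143 and 141 bases before the start. Of 9 immediate early promoters found, 3 held it (Fos, Atf3 and Dusp1), as did 2066 of 27025 promoters of all genes (7.64%).

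**Figure D4:**
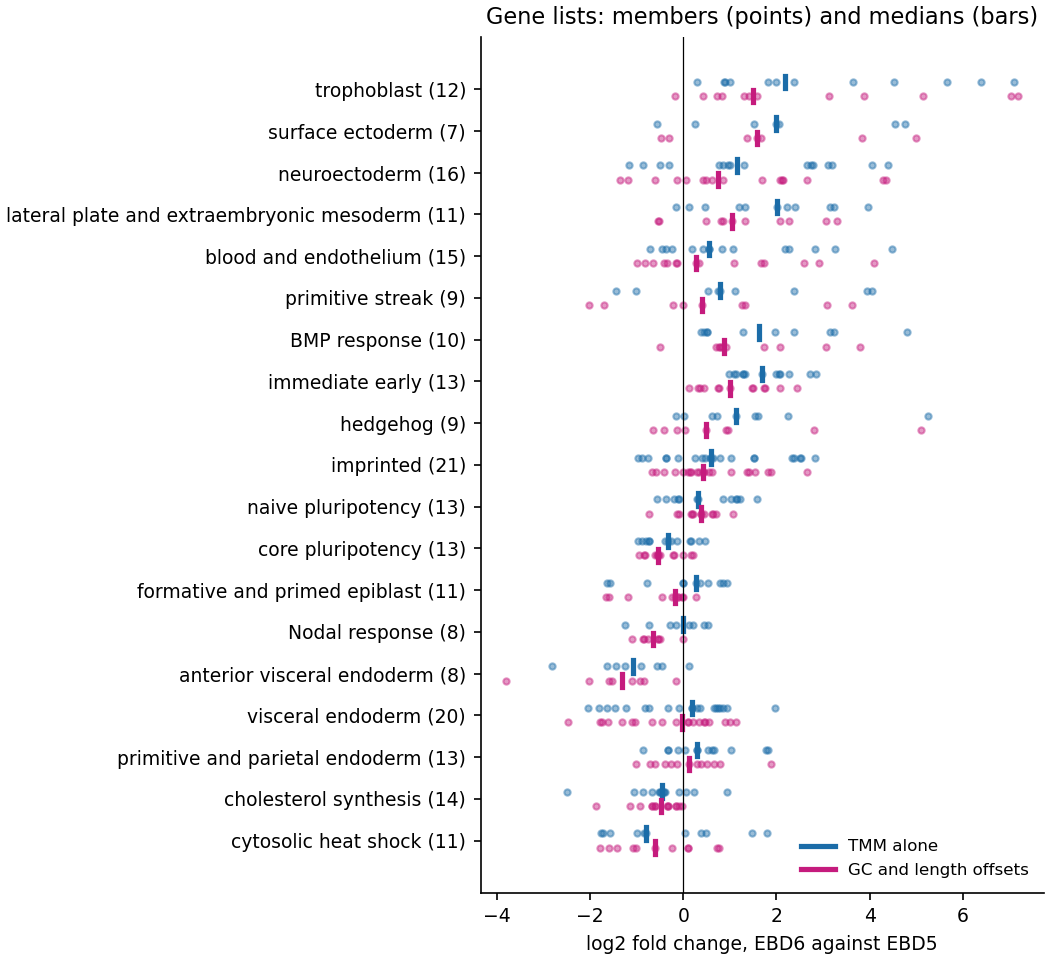
Log2 fold change of EBD6 against EBD5 (x axis) for the tested members (points, their number in brackets) of 19 gene lists, with the median of each list as a bar, for TMM scaling alone and with offsets for GC content and exon length. Medians stay above 0 in both for trophoblast (2.18 and 1.5) and below 0 in both for anterior visceral endoderm (-1.08 and -1.33), while the Nodal response median moves from -0.01 to -0.65.

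Several genes that control growth were higher in EBD6. Ccnd2, which encodes cyclin D2 (ENSMUSG00000000184, chromosome 6, 127125162 to 127152193, minus strand), was at 18.3, 15.9 and 20.2 CPM in the EBD5 samples and 228 and 224 CPM in the EBD6 samples, a log2 fold change of 3.64 ± 0.09 (SE; adjusted p = 1.09e-09) and 3.66 with offsets. Of 21 imprinted genes 15 rose and 5 fell (36.9% and 33.3% over all genes), with offsets 13 rose and 3 fell (28.4% and 33.3%), and by the stricter test 6 rose and none fell (8.28% and 12.9%). Igf2, the fetal growth factor gene, stood at 258, 241 and 254 against 783 and 648 CPM, and Plagl1, a zinc finger regulator of the imprinted network, at 11.7, 11.4 and 12.7 against 88.3 and 82.5 CPM. Cdkn1c, a cell cycle inhibitor, was at 25.3, 27.7 and 25.7 against 162 and 139 CPM, and Dlk1 at 7.19, 7.02 and 6.23 against 33.1 and 35.8 CPM. No EBD5 sample reached an EBD6 sample for these 4 genes. Peg3 and Snrpn fell with -0.75 (-0.67 with offsets) and -0.88 (-0.59 with offsets). Of 12 p53 target genes 9 rose and 2 fell without offsets (36.9% and 33.3% over all genes). With offsets 6 rose and 1 fell (28.4% and 33.3%). Bbc3 led the list, with 1.87 (0.91 with offsets). Bax, a pro-apoptotic target with 59.0% GC, had 1.0 (0.03 with offsets) and did not pass with offsets.

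Metabolic, chaperone and cell cycle lists did not share 1 direction. Of 14 cholesterol synthesis genes 10 fell and 2 rose (33.3% and 36.9% over all genes), and with offsets 10 fell and none rose (33.3% and 28.4%), with 3 lower by the stricter test (12.9%). Idi1, the isopentenyl diphosphate isomerase, stood at 39.0, 46.8 and 42.3 against 6.52 and 7.93 CPM, and Insig1, the sterol sensor partner, at 145, 142 and 149 against 73.3 and 67.1 CPM. Of 14 hypoxia and glycolysis genes 7 fell and 5 rose (33.3% and 36.9% over all genes), and with offsets 9 fell and 3 rose (33.3% and 28.4%). Bnip3, a mitophagy receptor, stood at 127, 119 and 121 against 41.0 and 33.1 CPM, while Ndrg1 rose, at 10.2, 9.69 and 8.88 against 76.1 and 76.5 CPM. Of 11 cytosolic heat shock genes 6 fell and 4 rose (33.3% and 36.9% over all genes), and with offsets 7 fell and 2 rose (33.3% and 28.4%). Hspa8, the constitutive HSC70 chaperone, stood at 1140.5, 1053 and 1148 against 353 and 305 CPM, and Hsp90aa1 at 1407, 1346 and 1402 against 508 and 423 CPM. Hspa1a and Hspa1b, the stress-induced copies of HSP70, rose with 1.79 (0.73 with offsets) and 1.48 (0.76 with offsets), and being near-identical they are uncertain as separate genes. Among 12 genes of the integrated stress response and endoplasmic reticulum chaperones 6 rose and 1 fell (2 without EBD6 replicate 1), against 36.9% and 33.3% over all genes. With offsets 4 rose and 3 fell (28.4% and 33.3%). Chac1, a glutathione-degrading enzyme induced by stress, rose with 2.51 (1.86 with offsets), and the chaperone gene Hsp90b1 fell with -0.88 (-0.58 with offsets). Of 19 nuclear genes of oxidative phosphorylation 10 rose (5 without EBD5 replicate 1, 6 without EBD6 replicate 1) and 5 fell, against 36.9% and 33.3% over all genes. With offsets 7 rose and 7 fell (28.4% and 33.3%). Ndufv1, a complex I subunit, rose with 0.97 (0.26 with offsets), and Cox7c, a cytochrome oxidase subunit, fell with -2.22 (-1.97 with offsets). Among 13 mitosis genes 6 fell and 2 rose (1 without EBD5 replicate 1 or 3), against 33.3% and 36.9% over all genes. Ccnb1 led the falls, at 364, 349.6 and 385 against 171 and 158 CPM. With offsets 6 mitosis genes fell and 1 rose (33.3% and 28.4% over all genes). Of 14 DNA replication genes 7 rose and 1 fell (36.9% and 33.3% over all genes), and with offsets 5 rose and 2 fell (28.4% and 33.3%). Pcna, the sliding clamp of replication, was the gene that fell without offsets, at -0.76, and did not pass with them (-0.05).

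The largest falls were of another kind. Of the 15 largest falls among protein-coding genes with at least 10 CPM, 12 were of genes with 1 annotated exon, against 3 of the 15 largest rises. Genes with 1 exon did not fall as a class. Of 274 tested protein-coding ones, leaving out ribosomal protein, histone and mitochondrial genes, 49.6% were higher and 20.1% lower. By the stricter test 19.7% were higher and 16.1% lower. Tpm3-rs7, a tropomyosin-related sequence, stood at 106, 91.1 and 109.7 against 2.99 and 1.48 CPM, Rps27rt, a retrotransposed ribosomal protein gene, at 31.6, 43.0 and 31.4 against 0.352 and 0.467 CPM and Zbed6, which lies within an intron of another gene, at 156, 127 and 133 against 7.57 and 0 CPM. The EBD6 counts of Zbed6 were all in replicate 1. Reads of such copies and of their parents can be split by the counting, so each is uncertain. Cytosolic ribosomal protein genes fell as a class: 64 of 83 were lower and 4 higher (33.3% and 36.9% over all genes). By the stricter test 52 were lower and 2 higher (12.9% and 8.28%). Rpl7a stood at 418, 432 and 402 against 66.1 and 70.9 CPM and Rpl24 at 43.0, 20.9 and 43.8 against 2.82 and 2.42 CPM, while Rps21 was higher, at 5.75, 35.8 and 9.82 against 143 and 105 CPM (log2 2.79, or 3.96 without EBD5 replicate 2). Of 47 replication histone genes 41 were lower and none higher, also by the stricter test, against the same shares over all genes. The linker histone gene Hist1h1a stood at 40.8, 43.1 and 42.3 against 1.94 and 2.63 CPM. EBD2 was at 80.0 CPM for Rpl7a and 6.53 CPM for Hist1h1a, nearer to EBD6 than to EBD5. The ribosomal protein class as a whole took 1.48% of counts in EBD2, against 2.13% in EBD5 and 1.21% in EBD6. Not every member followed. Rpl4, which had the most counts of the class, took 0.0908 to 0.104% in EBD2, 0.0881 to 0.107% in EBD5 and 0.0591 to 0.0695% in EBD6.

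Some housekeeping genes were also lower in EBD6, and the part of retrotransposed copies in their values was not tested. Among multi-exon genes, Gapdh stood at 982, 877 and 940.0 against 211 and 222 CPM, Actg1 at 333, 321 and 324 against 77.0 and 79.5 CPM, Tpt1 at 531, 596 and 509 against 113 and 91.1 CPM and Eef1a1 at 3047, 2656 and 3068 against 849 and 725 CPM, 4 genes chosen after their values were seen. Their EBD2 means were 174, 40.5, 159 and 871 CPM, so EBD5 stood above both other groups in each. Of 215 genes with a pseudogene named after them in the annotation, leaving out ribosomal protein and histone genes, 55.8% were lower and 17.7% higher in EBD6, with a median log2 fold change of -0.39. Among the other 13400 such protein-coding genes 28.3% were lower and 42.4% higher, with a median of 0.14. With offsets the medians were -0.35 and 0.02. This class was also chosen after the values had been seen.

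Markers of fibroblasts, which serve as feeder cells for stem cell culture, were low but differed. Of 8 listed genes 5 could be tested, 3 higher and 2 lower (36.9% and 33.3% over all genes). The summed level of all 8 was 20.8 to 24.8 CPM in EBD5 and 43.0 to 53.3 CPM in EBD6. Col1a2 stood at 6.47, 6.69 and 8.12 against 23.6 and 29.9 CPM and Col1a1 at 0.36, 0.669 and 1.32 against 7.75 and 10.1 CPM, whereas Thy1 and Dcn fell with -1.5 (-2.03 with offsets) and -1.98 (-1.5 with offsets). Lum had 0 counts in EBD5 and 26 in EBD6, Col3a1 6 and 41, and S100a4 2 and 3. Collagen genes are also expressed by mesoderm, and the part of either source in the mesodermal results was not tested. Genes of the two-cell-like state were near 0 in both groups, with a summed level of 0.576 to 1.19 CPM in EBD5 and 0.323 to 0.82 CPM in EBD6.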

How the data were processed

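The authors deposited expected counts per Ensembl gene for 9 libraries. They are estimates and so not always whole (90.9 to 94.6% of values per library were), and are not scaled to depth or length. Per the submitters' processing notes, RSEM 1.3.30, STAR 2.7.10a, cutadapt 1.18, DESeq2 1.38.3, edgeR 3.40.2 and the build mm10 were used, with no role given. Per the labels' protocols, RNA was captured on oligo-dT beads, made into KAPA RNA Hyperprep libraries and sequenced on 2 instrument types, without saying which library ran on which. Which annotation was counted, and whether by strand, is not given in the sources used here. Antisense and overlapping genes may therefore share reads.

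Symbols, exon GC content and length came from GENCODE M21 (54165 of 54232 IDs, 99.9%). A row that names no gene held at most 0.0157% of a library and was left out. Counts were rounded. Libraries of the same group were set against each other, gene by gene where a pair held at least 20 counts, with a chi-square statistic: EBD2 replicates 1 and 2 (0.949 per gene) and EBD6 replicates 2 and 3 (1.01 per gene, p = 0.169) did not differ beyond sampling noise and were summed. EBD5 replicates 1 and 3 (1.21 per gene) were kept apart. Genes were kept by filterByExpr (16168), scaled by TMM and tested by quasi-likelihood F tests in edgeR 4.0.16 under R 4.3.3, all 3 groups in 1 fit, with Benjamini-Hochberg adjustment over all genes tested and calls under 0.05. The fit had 4 residual degrees of freedom and a biological coefficient of variation of 6.7%. Offsets were each sample's median deviation of protein-coding genes in 10 bins of GC content by 5 of exon length. The stricter test against a fold of 1.5 with offsets was added after the data had been seen. Folds against 0 counts are lower bounds against 3 counts over the group, with 95% exact intervals where there were 1 to 3 counts. Depth, 5454268 to 11704761 counts per library, limits the precision of low genes.

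The members and the 44 gene lists were chosen with earlier results of these data known. The rule for named genes took, per list and direction, up to 4 called genes with the largest change and at least 10 CPM (counts per 1000000) in the higher group, up to 2 per list that did not pass, and those whose call turned under offsets. It also took 12 anchor genes, the 2 genes with the most counts in each RNA class, and the 15 largest rises and falls among protein-coding genes at that level whose EBD5 and EBD6 libraries did not overlap and whose call held under offsets. Of 167 named genes with a tested value, 31 fall outside that rule, and a few genes that it takes are not reported here. These, and the named genes too low to be tested, were chosen once their values had been seen. The alternatives tried were DESeq2 1.42.0, limma-voom (limma 3.58.1), DESeq2 size factors, other filters, other sample sets, a replicate block and leaving out each library.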

Additional observations from a re-analysis of the deposited data

How the results depend on the processing

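The counts of 5973 higher and 5383 lower genes stayed within 1.5 times under every alternative but the tests against a fold of 1.5, which called 2844 and 2473, or 1339 and 2087 with offsets for GC content and exon length (added after the data had been seen), because fewer genes pass a larger fold. Leaving out 1 library gave 5403 to 6279 higher and 4877 to 5440 lower genes, and a rank correlation of the fold change with GC content of 0.57 to 0.59. That correlation was 0.62 with a filter of 5 CPM in 3 libraries, 0.021 with offsets for GC content and length, 0.022 with offsets for GC content alone, and 0.021 with the replicate block and offsets, as the offsets are built to do.

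The replicate numbers did not pair the samples: same-numbered EBD5 and EBD6 libraries correlated at -0.076, -0.0119 and 0.0236 in their deviations from the group means. With 9 libraries and the replicate block 6071 higher and 5607 lower genes were called, against 6164 and 5731 for 9 separate libraries without it.

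Of 3992 values of named genes under other settings, 3778 kept their side of the threshold, 112 lost the call, 30 gained one and 72 reversed. A change of sign was counted as reversed only where the gene was called in the main or the other setting. All reversals so counted were under offsets, and the cause of each was not tested. Under offsets for GC content and length (the same values stand in the stricter test), for GC content alone, and for both with the replicate block, the log2 fold changes were, in that order, for Apoe -0.66, -0.66 and -0.71, for Etv4 -0.11, -0.04 and -0.10, for Fgf8 -0.23, -0.25 and -0.21, for Foxa2 -0.64, -0.65 and -0.65, for Foxh1 -0.76, -0.77 and -0.76, for Gata4 -0.39, -0.36 and -0.40, for Gli2 -0.42, -0.38 and -0.43, for Lefty1 -0.84, -0.85 and -0.85, for Lin28b 0.16, 0.15 and 0.17, for Pou3f1 -0.18, -0.20 and -0.15, for Sall4 -0.23, -0.21 and -0.23, for Smad7 -0.51, -0.53 and -0.51, for Sox3 -0.12, -0.14 and -0.09, for Tead4 -0.18, -0.10 and -0.23, for Trim28 -0.21, -0.16 and -0.24, for Twist1 -0.51, -0.53 and -0.57 and for Utf1 -0.51, -0.52 and -0.52. Nodal was at -0.0013 under offsets for GC content and length, Bax at -0.01 and Fgb at 0.22 with the replicate block and offsets. Genes with few counts in 1 group, ribosomal proteins with many pseudogenes, and genes within introns of others are the least certain of those named, and with 2 or 3 samples per group the spread rests on few values.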
